A study of Mus musculus with 4 samples.

Results

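The 79 genes described here encode subunits of the mitochondrial respiratory chain and ATP synthase that are carried in the nuclear genome. They were chosen by symbol: Nduf with a, b, c, s or v and then a digit, Sdha to Sdhd, any Uqcr, Cox4 to Cox8 and any Atp5. Each such gene with a probe set of a single symbol was taken, 79 of the 17097 genes measured. By symbol 34 belong to complex I, 4 to complex II, 7 to complex III, 17 to complex IV and 17 to complex V. Ndufab1, a complex I subunit gene, does not match these symbols and is counted below with the complex I assembly factors. Each gene is represented by its brightest probe set over the 4 arrays, and 38 of the 79 have more than 1 probe set. Ndufa4, long placed in complex I and now counted with complex IV, and its paralog Ndufa4l2 are kept here under their symbols. The probe set of the pseudogene Ndufs5-ps may also bind transcripts of Ndufs5.

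Expression was measured by microarray in cells sorted from the mouse mammary gland 3 days after they had been transplanted. In one group 10000 BC cells were transplanted alone, labelled the multipotent condition, with 2 arrays called BC alone replicates 1 and 2. The other group received 8000 LC cells with 2000 BC cells, labelled the unipotent control, also with 2 arrays. Basal and luminal cells are the usual reading of BC and LC, names that the labels leave as they are. RNA for each array came from 50 sorted cells. The strain, genotype and age of donors and hosts, the gate of the sort and the animals behind each array are not stated in the sources used here, and neither is whether the sorted control cells included LC cells. What separates arrays of 1 group may therefore be technical, and the p-values measure no more than that spread.

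Complex I takes electrons from NADH and complex II from succinate. Both pass them through ubiquinone to complex III, which hands them by way of cytochrome c to complex IV, where oxygen is reduced. The proton gradient built by complexes I, III and IV drives ATP synthase, complex V. Most subunits are nuclear-encoded and used in nearly every cell, while a few of complex IV have isoforms restricted to muscle, testis or low oxygen. In the mammary gland, as elsewhere, complexes I, III, IV and V must be assembled from nuclear and mitochondrial gene products in fixed ratios.

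Promoter sequence is shown because nuclear respiratory chain genes are known to share sites for the factors NRF1, GABP (an ETS factor) and YY1. RefSeq promoters of build GRCm38.p6, running from 250 bases before to 50 bases after the gene start, were matched by symbol for 63 of the 79 genes. An NRF1 core, searched as GCATGCGC on both strands, was present in 10 of the 63 (15.9%), against 3.05% of the 27025 genes in the table. An ETS core, CCGGAAG, was found in 15 of the 63 (23.8%), against 9.93% of all genes. A YY1 core, AAGATGGC, was found in 10 (15.9%), against 3.19%. At least 1 of these motifs was in 29 of the 63 (46.0%), against 14.9% of all genes. A match is a description of the letters and not evidence of binding. The 29 genes with a match had a median gap of control replicate 2 below the mean of the other 3 arrays of -1.73 log2, and the 34 without one had -1.52. This gap also followed the level of a gene, as given below, and the 2 sets were not matched by level. The part of the motifs in it was not tested.

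One promoter for each complex is printed, the one with the most kinds of motif in the last 150 bases before the start and, among ties, the widest gap on control replicate 2. Those of Ndufv3 and Sdha are added because, of the genes with a promoter in the table, they lay furthest above control replicate 1. Both choices left out the promoters of 1 chromosome and, for the 5 genes with several promoters, all but the first listed. Capitals mark the motif letters, and no motif was found in the shown part of Ndufv3 and Sdha. On GRCm38.p6 these are chr17:56717612-56717761 on the plus strand for Ndufa11, chr4:140961121-140961270 on the plus strand for Sdhb and chr10:80406822-80406971 on the minus strand for Uqcr11. Cox6a1 is at chr5:115348959-115349108 and Atp5e at chr2:174464102-174464251, both on the minus strand. Ndufv3 is at chr17:31519965-31520114 on the plus strand and Sdha at chr13:74350241-74350390 on the minus strand.
Ndufa11: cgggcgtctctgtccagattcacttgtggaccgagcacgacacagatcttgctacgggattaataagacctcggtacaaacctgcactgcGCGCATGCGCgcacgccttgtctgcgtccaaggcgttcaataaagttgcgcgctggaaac
Sdhb: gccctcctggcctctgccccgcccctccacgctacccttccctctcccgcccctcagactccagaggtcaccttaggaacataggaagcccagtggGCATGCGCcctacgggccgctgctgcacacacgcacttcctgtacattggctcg
Uqcr11: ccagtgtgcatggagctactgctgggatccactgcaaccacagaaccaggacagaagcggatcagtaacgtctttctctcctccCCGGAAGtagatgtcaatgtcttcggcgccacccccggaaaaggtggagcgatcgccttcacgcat
Cox6a1: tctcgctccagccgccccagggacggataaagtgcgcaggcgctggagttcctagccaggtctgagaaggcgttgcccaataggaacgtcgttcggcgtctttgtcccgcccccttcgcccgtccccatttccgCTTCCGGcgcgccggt
Atp5e: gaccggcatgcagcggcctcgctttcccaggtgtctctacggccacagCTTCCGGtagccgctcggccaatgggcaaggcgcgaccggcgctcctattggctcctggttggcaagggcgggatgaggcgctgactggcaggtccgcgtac
Ndufv3: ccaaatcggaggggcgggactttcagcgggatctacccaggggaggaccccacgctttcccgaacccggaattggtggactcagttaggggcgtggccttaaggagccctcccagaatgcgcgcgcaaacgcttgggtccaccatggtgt
Sdha: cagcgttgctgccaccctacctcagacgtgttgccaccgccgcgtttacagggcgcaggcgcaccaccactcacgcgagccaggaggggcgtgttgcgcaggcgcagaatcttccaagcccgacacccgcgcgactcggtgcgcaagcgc
In Ndufa11 the NRF1 core occurs on both strands, so that the capitals form 1 palindrome of overlapping matches.

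In every complex the median gene had nearly the same log2 value on both BC alone arrays and on control replicate 1, and a far lower value on control replicate 2. The median over the 79 genes was 9.31 on both BC alone arrays and 9.36 and 7.61 on control replicates 1 and 2. Control replicate 2 was the lowest of the 4 arrays for 71 of the 79 genes, where it was for 34.1% of all genes, and the highest for 5, against 40.4%. It lay more than 1 log2 below the mean of the other 3 arrays for 65 genes, against 17.2% of all genes. The median gap was -1.50 log2 for the members and 0.05 for all genes. Among the other 3 arrays, the range of a member had a median of 0.26 log2, against 0.37 for all genes.

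**Figure D1:**
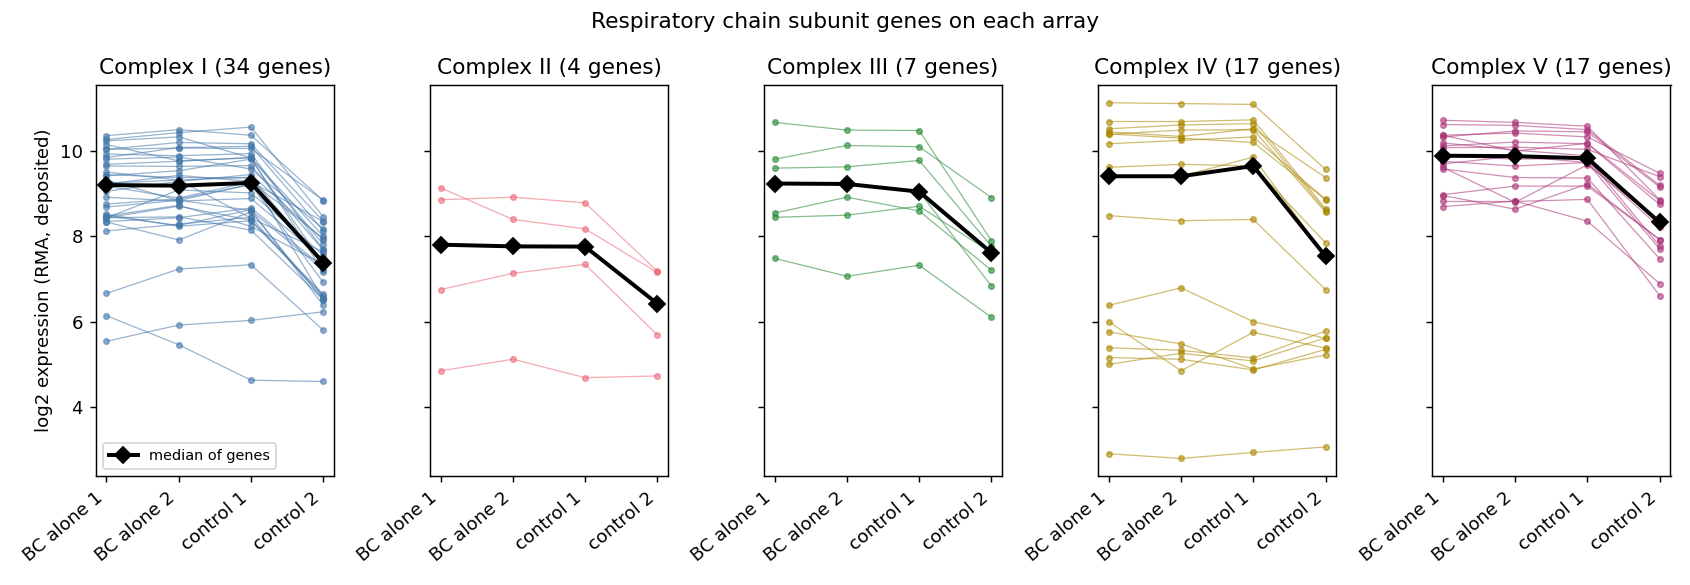
Deposited log2 expression of the 79 genes on each of the 4 arrays, 1 panel per complex. Thin lines join the values of a gene, and the black diamonds are the median of the genes in the panel. Medians of complex V are 9.88, 9.87 and 9.82 on the first 3 arrays and 8.32 on control replicate 2.

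Control replicate 2 stood apart over the whole array. Its values had an SD of 1.44 over all probe sets, against 1.90 to 1.92 on the others, and it correlated with them at a Pearson r of 0.915 to 0.919, across probe sets that are not independent, while the highest r among those others was 0.972. The bacterial spike-in probe sets had a median of 9.385 there and 8.03 to 8.67 on the others. The control probe sets for beta-actin, 3' end minus 5' end, differed by -0.35 there and by -0.44 to -0.37 on the other arrays. Those of Gapdh differed by 0.00 there and by -0.23 to -0.17 elsewhere. Of the basal cell markers 8 of 8 were measured, and their medians were 9.98 and 9.635 for BC alone, then 9.765 and 5.685 for the controls in the order of replicates. Krt14, a basal keratin, had 10.23 and 9.80 against 10.49 and 6.78, and was low on control replicate 2 alone. The 8 log2 values summed to 73.41 and 70.73 for BC alone and to 74.30 and 47.47 for the control. Sums over 9 luminal markers were 67.59 and 72.11 against 70.77 and 61.08. Sums over 7 fibroblast markers were 55.92 and 55.70 against 50.32 and 43.77, and over 5 endothelial markers 32.90 and 33.25 against 28.91 and 27.70. Sums over the 2 measured of 4 erythroid markers, lower in BC alone on average, were 16.19 and 13.33 against 18.16 and 16.85. Over 6 immune markers they were 29.07 and 31.45 against 31.54 and 31.36. Sums over the 3 measured of 5 adipocyte markers were 15.06 and 15.60 against 14.07 and 14.85. Over 3 brown adipocyte markers they were 13.42 and 12.68 against 11.30 and 13.05. In these last 2 lists only Fabp4, an adipocyte marker, was above the highest probe set that binds nonspecifically by design, on any array. The part of these cell types, of RNA quality or of this array in the results was not tested. In such sorted pools, fewer cells of a type and less RNA per cell cannot be told apart.

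The gap on control replicate 2 followed the level of a gene over the whole array. Among all 1456 genes with a mean of 8 to 10 log2 the median gap was -1.495, and among the 51 members in that range it was -1.70. Among all 241 genes above 10 it was -1.34, and -1.54 among the 9 members there. Among all 4022 genes of 6 to 8 the median was -0.73, and -1.695 for 10 members. Genes of 4 to 6, 6473 in all, had a median of 0.18 and the 8 members among them 0.07. After quantile normalization, which gives the 4 arrays 1 distribution, the gap had a median of -0.36 for all 79 members and 0.015 for all genes. By level, its median at 8 to 10 was then -0.36 for members and -0.20 for all genes. Above 10 these were -0.15 and -0.11, and from 6 to 8 they were -0.86 and -0.08. Control replicate 2 was then the lowest array for 47 members, against 31.6% of all genes. After cyclic loess the gap was -0.19 and the count 42, against 29.8%.

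**Figure D2:**
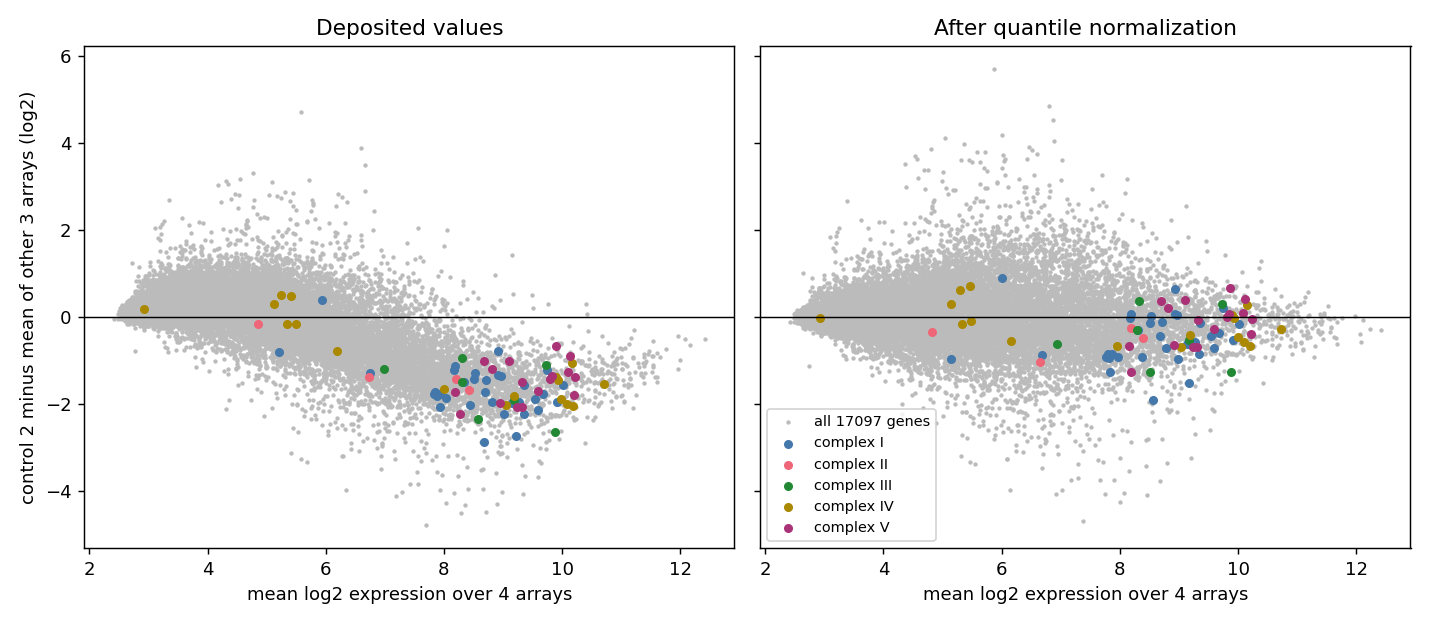
Log2 value on control replicate 2 minus the mean of the other 3 arrays, against the mean of a gene over the 4 arrays, before and after quantile normalization. Grey points are all 17097 genes and coloured points the members of each complex. Members lie at a median of -1.50 on the left and -0.36 on the right.

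BC alone was compared with the mixture to ask how the presence of LC cells goes with expression, although the number of BC cells differed as well and cannot be told apart from it. Of the 79 genes, 74 had a higher mean in BC alone, against 46.7% of all genes. The median difference was 0.81 log2 for members and -0.04 for all genes. The difference also followed the level of a gene. Among genes of 8 to 10 log2 it had a median of 0.84 for members and 0.79 for all genes. Above 10 these were 0.79 and 0.68, and from 6 to 8 they were 0.74 and 0.40. After quantile normalization 55 of the 79 had a higher mean, at a median of 0.18, after cyclic loess 47 did, at 0.06, and after scaling to 1 median and interquartile range 66 did, at 0.37. Without control replicate 2, 38 were higher and 41 lower, and the median was -0.005. Without control replicate 1 the median was 1.59. For 25 genes both BC alone arrays were above both controls, against 16.8% of all genes, and for 2, Ndufs1 and Cox7b2, both were below, against 19.6%. After quantile normalization these counts were 21 and 11, against 16.5% and 18.0%, and after cyclic loess 15 and 12, against 16.9% and 18.2%.

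By limma 0 of the 79 genes, and 0.0% of all genes, were past an adjusted p of 0.05. The smallest adjusted p among members was 0.842. Only Ndufv3 and Ndufa4l2, 2 members, had an unadjusted p under 0.05, both higher in BC alone, where 3.08% of all genes were, and 0 lower, against 0.895%. With an intensity trend or a robust variance model in limma the count of members past the adjusted threshold was also 0. With 2 arrays a group, the smallest p an exact permutation test allows is 0.333.

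**Figure D3:**
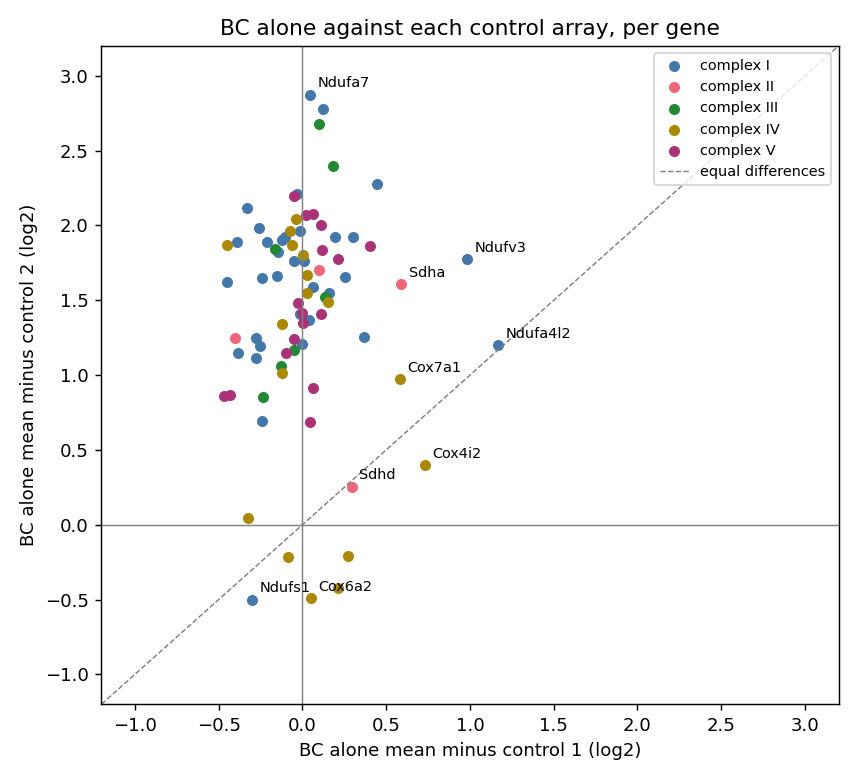
Mean of the 2 BC alone arrays minus control replicate 1 (horizontal) and minus control replicate 2 (vertical), in log2, for each of the 79 genes, coloured by complex. Most points lie near 0 on the horizontal axis and between 1 and 2 on the vertical one, and Ndufa4l2 lies near the dashed line of equal differences, at 1.17 on the horizontal axis.

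Against control replicate 1 alone the genes were close to level. The BC alone mean was within 0.25 log2 of that array for 53 of the 79 genes, against 58.8% of all genes. Differences ran from -0.47 for Atp5g2 to 1.17 for Ndufa4l2. Only Ndufa4l2 reached 1 log2, against 2.24% of all genes. Complex II had the highest median, 0.20 over 4 genes, while complexes I, III, IV and V had -0.04, -0.05, 0.005 and 0.02. The complex II median depended on the Sdha probe set used, at 0.59, where a second of similar brightness was at -0.39. Sdhd, at 0.295, did not exceed the highest nonspecific probe set, described below, on any of the 4 arrays.

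In complex I, 33 of 34 genes had their lowest value on control replicate 2, and the median gap was -1.74. Ndufs7, an iron-sulfur subunit next to the quinone site, had log2 values of 10.14 and 9.76 in BC alone and of 9.83 and 7.17 for the control. Only control replicate 2 was low, and the groups overlapped. Ndufv1, which binds NADH and FMN, had 9.80 and 9.85 against 9.57 and 8.17, a difference of 0.955 ± 0.51 (SE of the limma fit, n = 2 arrays a group). Both BC alone arrays were above both controls, by 0.255 on average above control replicate 1. A second, dimmer Ndufv1 probe set had 7.92 and 7.81 against 8.09 and 7.05, so that the groups overlapped. It differed by 0.295, or by -0.225 against control replicate 1. Ndufs3, of the quinone module, had 8.33 and 7.91 against 8.57 and 6.50, so that control replicate 1 was the highest of the 4. Ndufs8 likewise had 6.66 and 7.23 against 7.33 and 5.80, and Ndufv2, an iron-sulfur subunit of the NADH module, 9.17 and 8.89 against 9.27 and 8.34. Their differences of 0.585, 0.38 and 0.225 were smaller than the SD of the 2 controls, which was 1.46, 1.08 and 0.66.

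Ndufs1, the largest iron-sulfur subunit, went the other way. It had 5.54 and 5.92 in BC alone and 6.03 and 6.23 for the control, a difference of -0.40 ± 0.32 (limma, adjusted p = 0.842). Of the 34 complex I genes it alone had a lower mean in BC alone. The highest of the 23 probe sets that bind nonspecifically by design lay at 6.61 and 6.62 for BC alone and at 6.27 and 5.17 for the control, and Ndufs1 was above it on control replicate 2 only. That limit is coarse, since such signal depends on base composition. By it 69 of the 79 genes were above nonspecific signal on all 4 arrays, 7 on some and 3, namely Cox7b2, Ndufa4l2 and Sdhd, on none.

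Among the accessory subunits, Ndufa7, Ndufa3, Ndufb4 and Ndufa9 differed by more than 2-fold with no overlap between the groups. So did Ndufv3, Ndufa4l2 and 5 members of other complexes, 11 members in all, against 4.79% of all genes. In the other direction there were 0, against 0.895%. Of these 11, Ndufa4l2 alone still differed by 1 log2 or more after quantile normalization, where they ran from 0.39 to 1.20, after cyclic loess, where they ran from 0.31 to 1.22, or against control replicate 1. Ndufa7 had 9.44 and 9.37 in BC alone and 9.36 and 6.53 for the control, a difference of 1.46 that was 0.045 against control replicate 1. Its 4 other probe sets differed by 0.64 to 1.01. In each of them the groups overlapped, and the difference against control replicate 1 was -0.165 to 0.0. Ndufa3 had 10.23 and 10.32 against 9.83 and 8.0, and another probe set differed by 1.65 where this one differed by 1.36. Ndufa3 was 0.445 above control replicate 1, and Ndufb4 and Ndufa9 were 0.30 and 0.195 above it. A second Ndufb4 probe set of similar brightness had 8.26 and 8.62 against 8.35 and 6.28, so that the groups overlapped.

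Ndufv3, an accessory subunit of the NADH module, was the member with the smallest p. It had 9.50 and 9.31 in BC alone, and 8.42 and 7.63 for the controls. Both controls were well below both BC alone arrays. The difference was 1.38 ± 0.38, or 2.60-fold, with an unadjusted p of 0.0128 in limma and an adjusted p of 0.842. Against control replicate 1 it was 0.985. After quantile normalization the difference over all arrays was 0.65 and after cyclic loess 0.66, so its size depended on the scaling while its direction did not. Over the 14 alternatives the adjusted p in limma ran from 0.0842, without control replicate 1, to 0.999.

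Ndufa4l2, a paralog of Ndufa4 that is induced by hypoxia through HIF1 and is known from pericytes, had 6.14 and 5.46 in BC alone and 4.63 and 4.6 for the control. Its difference was about as large against either control array, 1.17 and 1.20. The difference was 1.185 ± 0.36, or 2.27-fold, with an unadjusted p of 0.0181 in limma and an adjusted p of 0.842. It was 1.20 after quantile normalization and 1.22 after cyclic loess, and 0.845 without BC alone replicate 1. Its values did not exceed the highest nonspecific probe set on any array. Ndufa4 itself had 10.03 and 10.19 for BC alone against 10.16 and 8.35, level with control replicate 1.

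Complex II, succinate dehydrogenase, is also an enzyme of the citric acid cycle. Sdha, the flavoprotein that oxidises succinate, had 9.13 and 8.39 for BC alone against 8.17 and 7.15 for the control, a difference of 1.10 ± 0.48 (limma, adjusted p = 0.842). Both BC alone arrays were higher, but replicate 1 more so. A second Sdha probe set of similar brightness had 8.26 on both BC alone arrays and 8.65 and 7.04 for the control, and so was 0.39 below control replicate 1 where the first was 0.59 above. Sdhb, the iron-sulfur subunit, had 8.85 and 8.91 against 8.78 and 7.18. The membrane anchor Sdhc had 6.75 and 7.13 against 7.34 and 5.69, with control replicate 1 highest. Sdhd, the other anchor, had 4.85 and 5.12 against 4.69 and 4.73, all within the nonspecific range.

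In complex III, control replicate 2 was the lowest array for 7 of 7 genes. Uqcrq and Uqcr10, small subunits, had the widest gaps, with 10.66 and 10.48 against 10.47 and 7.89 for Uqcrq, and 9.23 and 9.22 against 9.04 and 6.83 for Uqcr10. Each had both BC alone arrays above both controls, by 0.10 and 0.185 on average above control replicate 1. The core proteins Uqcrc1 and Uqcrc2 had narrower gaps of -0.93 and -1.10. Uqcrc1 had 8.44 and 8.49 against 8.70 and 7.61, and Uqcrc2 9.80 and 10.12 against 10.09 and 8.90. Uqcrfs1, the Rieske iron-sulfur protein, had 7.48 and 7.06 against 7.32 and 6.10, and Uqcrb 8.54 and 8.91 against 8.59 and 7.20.

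Complex IV divided by isoform. General isoforms were low on control replicate 2, and among the restricted isoforms of the complex only Cox7a1 had its lowest value there. Cox4i1, the general form of subunit 4, had 10.51 and 10.60 in BC alone and 10.63 and 8.59 for the control. Cox6a1 had 10.68 on both BC alone arrays and 10.72 and 8.64, Cox6b1 10.38 and 10.48 against 10.49 and 8.56, and Cox8a 9.61 and 9.68 against 9.64 and 7.84. In each, the other 3 arrays lay within 0.12 log2 of one another, and the gap on control replicate 2 was -2.05 to -1.80. Cox7a2 had 11.12 and 11.10 against 11.08 and 9.56, and its paralog Cox7a2l, which helps to form supercomplexes, 10.16 and 10.24 against 10.32 and 8.86. Cox5a had 9.40 on both BC alone arrays, 9.85 and 7.53 for the control, so that the controls lay on both sides. Cox5b had 10.44 and 10.33 against 10.51 and 9.37, and Cox6c 10.39 and 10.29 against 10.19 and 8.85.

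The 8 restricted isoforms, 7 of complex IV and Ndufa4l2, had a median gap of 0.02 log2 on control replicate 2, against -1.66 for the other 71 genes. For 0 of the 8 the gap exceeded 1 log2, and for 65 of the 71 it did. Each of the 8 was at or below the highest nonspecific probe set on at least 2 arrays, and the median gap of all genes with a mean of 4 to 6 was 0.18. The heart and muscle isoforms Cox6a2 and Cox8b had 5.0 and 5.26 against 5.08 and 5.62, and 5.16 and 5.12 against 4.87 and 5.35. The testis isoforms Cox6b2, Cox7b2 and Cox8c had differences of -0.14, -0.15 and -0.105. Markers of striated muscle, 6 of 6 measured, had medians of 3.79, 3.635, 3.56 and 4.055 on the 4 arrays, and their log2 values summed to 22.18 to 22.39 in BC alone and 21.75 to 24.91 for the control.

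**Figure D4:**
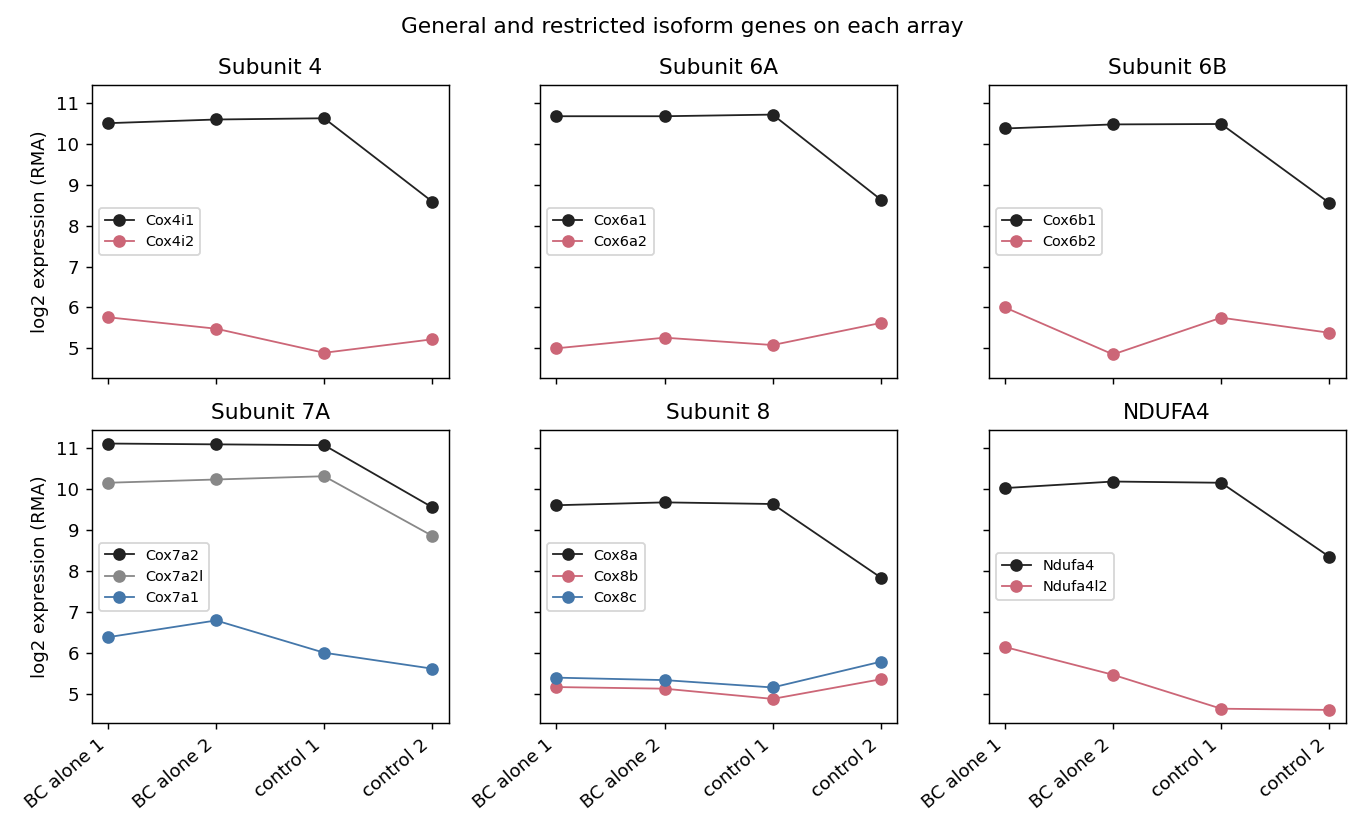
Deposited log2 expression of general (dark or grey) and restricted (coloured) isoform genes on each of the 4 arrays, in 1 panel per subunit. General isoforms are level on 3 arrays and lower on control replicate 2, as from 10.63 to 8.59 between the controls for Cox4i1. Ndufa4l2, Cox4i2 and Cox7a1 are higher on both BC alone arrays than on both controls.

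Cox4i2 and Cox7a1 were the restricted isoforms of complex IV with both BC alone arrays above both controls. Cox4i2, the oxygen-responsive form of subunit 4, had 5.76 and 5.48 in BC alone and 4.89 and 5.22 for the control, a difference of 0.565 ± 0.32. Cox7a1, the heart and muscle form of subunit 7A, had 6.38 and 6.79 against 6.0 and 5.61, a difference of 0.78 ± 0.34. In neither did the groups overlap, and both had an adjusted p of 0.842 in limma. The differences were 0.52 and 0.60 after quantile normalization and 0.57 and 0.55 after cyclic loess. Without control replicate 2 they were 0.73 and 0.585.

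Pericytes, the mural cells of small vessels, are known to express Ndufa4l2 and Cox4i2, which here lay at or below the highest nonspecific probe set on 4 and 3 of the 4 arrays. Of 8 such markers, a list chosen after those values were seen, 6 were measured and 5 had a higher mean in BC alone, with a median difference of 0.845. For 3 of the 6 both BC alone arrays were above both controls, against 16.8% of all genes, and Pdgfrb had -0.105. Rgs5 had 8.41 and 7.78 in BC alone and 4.45 and 5.75 for the control, and Notch3 9.20 and 8.08 against 7.06 and 6.94. The log2 values of the list summed to 37.84 and 36.66 in BC alone and to 29.28 and 32.30 for the control. Targets of hypoxia, 11 of 12 measured and also chosen afterwards, were mixed, with 7 of 11 higher and a median of 0.415, or 0.045 against control replicate 1 and -0.235 after quantile normalization. Bnip3 and Vegfa had differences of 1.335 and 1.19, or 0.67 and 0.435 against control replicate 1, and Pdk1 had -0.61. None of these genes was past an adjusted p of 0.05 in limma. The part of either list in the result was not tested.

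In complex V 17 of 17 genes had a higher mean in BC alone, 8 after quantile normalization and 7 after cyclic loess, and 17 of 17 had their lowest deposited value on control replicate 2. Atp5a1 and Atp5b, the alpha and beta subunits of the catalytic F1 head, had 10.11 and 10.20 against 10.16 and 8.74, and 9.88 and 9.80 against 9.82 and 7.77. Both were level with control replicate 1, with differences of -0.005 and 0.02. Atp5pb, subunit b of the peripheral stalk, had the smallest p of the complex, with 8.69 and 8.82 against 8.35 and 6.89, a difference of 1.135 ± 0.53 (limma, adjusted p = 0.842). It was 0.405 above control replicate 1. Atp5o, which joins stalk and head, had 9.57 and 9.37 against 9.36 and 7.47, and Atp5j, another stalk subunit, 10.18 and 10.01 against 9.88 and 8.32.

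The 3 genes for subunit c, which forms the rotor ring, encode identical mature proteins within different precursors. Atp5g1 had 8.95 and 8.63 for BC alone against 9.22 and 7.92 for the control, Atp5g2 9.61 and 8.79 against 9.67 and 8.34, and Atp5g3 10.32 and 10.46 against 10.44 and 9.15. In all of them control replicate 1 was level with or above the BC alone mean, by 0.43, 0.47 and 0.05. The narrowest gaps of the complex were those of Atp5d, the delta subunit, with 10.07 and 10.08 against 10.03 and 9.39, and of Atp5md, at -0.89. The widest was that of Atp5e, the epsilon subunit, with 8.81 on both BC alone arrays and 8.86 and 6.61 for the control.

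**Figure D5:**
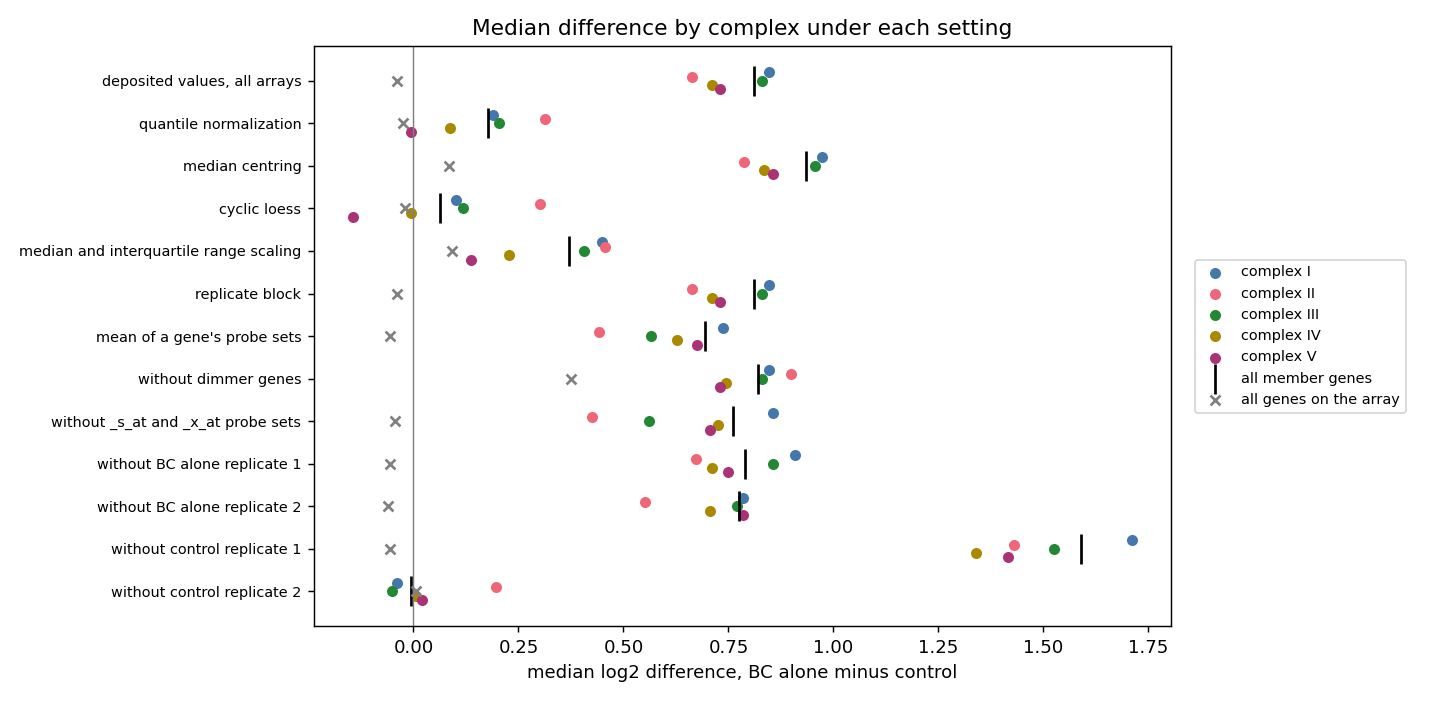
Median log2 difference, BC alone minus control, over the genes of each complex (coloured points), over all 79 members (black bars) and over all genes (grey crosses), under each setting. Members lie at 0.81 on the deposited values, at 0.18 after quantile normalization, at 1.59 without control replicate 1 and at -0.005 without control replicate 2.

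By complex, the median differences were 0.85, 0.66, 0.83, 0.71 and 0.73 for complexes I to V on the deposited values. After quantile normalization they were 0.19, 0.31, 0.20, 0.09 and -0.005, and after cyclic loess 0.10, 0.30, 0.12, -0.01 and -0.14. The order of the complexes was thus not the same under each scaling. Complex II, with 4 genes, was lowest on the deposited values and highest after both of these, and without dimmer genes it was highest on the deposited scale too, at 0.90. On that scale it was 0.425 without probe sets made to bind several transcripts, which include those used for Sdha and Sdhd.

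Other genes of energy metabolism were also low on control replicate 2, to differing degrees, and their median differences did not keep their sign under quantile normalization. The 16 measured genes of 18 of the citric acid cycle had medians of 7.695, 8.0, 7.945 and 7.06 on the 4 arrays, 13 of 16 had a higher mean in BC alone, and the median difference was 0.55, or -0.05 after quantile normalization. Suclg2 and Pcx had the smallest p of these and did not share the profile. Suclg2, a succinate-CoA ligase subunit, had 6.71 and 6.08 against 7.12 and 7.44, and Pcx, pyruvate carboxylase, 6.15 and 6.18 against 5.33 and 5.50. Glycolysis genes, 17 of 20 measured, had medians of 8.55, 8.94, 8.84 and 7.41, with 15 of 17 higher and a median difference of 0.515, or -0.01 after quantile normalization. Genes of mitochondrial import and protein folding, 17 of 19 measured, were higher in 17 of 17, at 0.455, or -0.07 after quantile normalization, and 14 of the 17 were below control replicate 1. Cytosolic ribosomal protein genes, 68 chosen by symbol after these values were seen, had medians of 11.145, 11.16, 11.19 and 9.875, and 66 had a higher mean in BC alone, 46 after quantile normalization and 8 after cyclic loess. None of the genes in these lists was past an adjusted p of 0.05 in limma.

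Assembly factors and regulators had smaller median differences than the subunits on the deposited values, but not under every scaling. They also lay at lower levels. Medians on the 4 arrays were 4.73 to 5.8 for complex I assembly factors, 4.95 to 5.67 for regulators and 7.61 to 9.36 for the subunits. All genes of 4 to 6 log2 had a median difference of -0.13, and those of 8 to 10 had 0.79. The lists were not matched by level, and its part was not tested. The list of complex I assembly factors includes the subunit gene Ndufab1, which had 7.21 and 7.38 in BC alone and 7.05 and 5.74 for the control. Complex I assembly factors, 13 of 14 measured, had a median difference of 0.275, and those of complexes II and III, 9 of 10, 0.33. Those of complex IV, 16 of 20, had 0.24, and those of complex V, 6 of 6, 0.30. After cyclic loess these were 0.35, 0.09, 0.11 and -0.06, beside 0.06 for the 79 subunits. Surf1, needed to assemble complex IV, had 7.59 on both BC alone arrays and 6.99 and 5.93 for the control, and Coa3 8.17 and 7.71 against 7.41 and 6.01. Electron carriers and ubiquinone synthesis genes, 9 of 13 measured, had 0.255, or -0.055 after quantile normalization. Regulators of mitochondrial biogenesis, 15 of 16 measured, had a median difference of -0.15, with 5 higher and 10 lower, which was -0.07 after quantile normalization and -0.39 against control replicate 1. Tfam, the mitochondrial transcription factor, had 6.45 and 6.41 in BC alone and 6.84 and 7.12 for the control, and Esrrg, an estrogen-related receptor, 4.26 and 4.32 against 4.65 and 5.34. In both, the BC alone arrays were below both controls, as were 19.6% of all genes. Tfam was above the highest nonspecific probe set on the controls only, and Esrrg on control replicate 2 only. The 13 genes encoded by mitochondrial DNA were not analysed here.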

How the data were processed

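Each array holds log2 values per probe set as deposited. Per the submitters' processing notes, these came from RMA in affy, with no version given. Whether the 4 arrays were normalised together is not given in the sources used here. Of 45141 probe sets, the platform annotation gave 28898 a single symbol and 551 several, and 15692 were not named. Single-symbol probe sets were reduced to the brightest per gene, giving 17097 genes, and dim genes were kept.

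Differences between the groups were tested with limma 3.58.1 (R 4.3.3; lmFit, eBayes), no block, two-sided, and Benjamini-Hochberg adjustment over all genes at 0.05. The fit had 2 residual and 3.50 prior degrees of freedom. Means and SDs are over 2 arrays, and the number of arrays limits the precision. The code was tested on simulated data. The members and gene lists were chosen with earlier results of these data known. Genes named in the text are the 3 members of each complex with the smallest p, core subunits and isoform sets whatever their values, members at least 2-fold different without overlap, the 3 with the widest range among probe sets of opposite sign, and up to 2 genes of each other list. Named outside this rule, with values seen, are Ndufa4, Ndufs5-ps, Krt14, Oxtr, Rgs5, Notch3, Pdgfrb, Atp5d, Atp5e, Atp5md, Vegfa, Bnip3 and Pdk1. Of the members named by the rule, 47 are reported here. In all 14 alternatives were run, of which 1, the fit without probe sets made to bind several transcripts, was chosen after seeing the data.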

Additional observations from a re-analysis of the deposited data

How the results depend on the processing

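Without 1 array the remaining one of its group is assumed to vary like the other group. Leaving out each array in turn gave medians of -0.005 to 1.59 for all members, -0.04 to 1.71 for complex I, 0.20 to 1.43 for complex II, -0.05 to 1.525 for complex III, 0.005 to 1.34 for complex IV and 0.02 to 1.415 for complex V. Members with a higher mean numbered 38 to 75. Members whose groups did not overlap numbered 27 to 73 higher in BC alone and 3 to 29 lower. The 73 came without control replicate 1, and the 27 and 29 without control replicate 2. Each of these is thus a count against 1 control array. All genes past the adjusted threshold, 0 in limma on the deposited values beside 680 at an unadjusted p under 0.05, stayed at 0 in each of these fits, and members did in all 14 alternatives. All genes past it numbered 97 with a trend in limma and 108 with the replicate block.

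The labels do not say that equal replicate numbers mark a shared source, and deviations of same-numbered arrays from their group means correlated at -0.018 over 17097 genes. With the replicate number as a block, no member passed and the 25 and 2 members without overlap are as before. Median centring moved the median of all genes by 0.125 and scaling by median and interquartile range by 0.132. Members above both controls numbered 15 after cyclic loess and 13 after median and interquartile range scaling. Members below both numbered 11 after quantile normalization, 1 after median centring, 12 after cyclic loess, 5 after median and interquartile range scaling and 1 without dimmer genes. Members with a higher mean numbered 47 after cyclic loess. The median of complex V was -0.005 after quantile normalization and -0.14 after cyclic loess, and that of complex IV -0.0061 after cyclic loess. The causes were not tested.

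Of 47 named members, 25 changed sign in at least 1 alternative. After quantile normalization the differences were -0.029 for Atp5a1, -0.475 for Atp5g1, -0.52 for Atp5g2, -0.105 for Atp5g3, -0.25 for Cox5b, -0.13 for Cox7a2l, -0.49 for Ndufv2, -0.345 for Uqcrc1 and -0.26 for Uqcrc2. After cyclic loess they were -0.15 for Atp5a1, -0.49 for Atp5g1, -0.57 for Atp5g2, -0.29 for Atp5g3, -0.049 for Cox5a, -0.45 for Cox5b, -0.050 for Cox6c, -0.17 for Cox7a2, -0.26 for Cox7a2l, -0.015 for Ndufs3, -0.0056 for Ndufs8, -0.52 for Ndufv2, -0.355 for Uqcrc1 and -0.38 for Uqcrc2. After median and interquartile range scaling they were -0.19 for Atp5g1, -0.28 for Atp5g2, -0.028 for Atp5g3, -0.20 for Cox5b, 0.21 for Cox7b2, -0.25 for Ndufv2, -0.059 for Uqcrc1 and -0.11 for Uqcrc2. Cox8c had 0.02 after median centring and Atp5g1 -0.015 with the mean of its probe sets.

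Leaving out each array gave -0.005 to 1.415 for Atp5a1, -0.43 to 0.87 for Atp5g1, -0.47 to 0.86 for Atp5g2, -0.05 to 1.24 for Atp5g3, -0.075 to 1.965 for Cox4i1, -0.45 to 1.87 for Cox5a, -0.125 to 1.015 for Cox5b, -0.04 to 2.04 for Cox6a1, -0.49 to 0.05 for Cox6a2, -0.06 to 1.87 for Cox6b1 and -0.715 to 0.435 for Cox6b2. It gave -0.12 to 1.34 for Cox7a2l, -0.21 to 0.27 for Cox8b, -0.42 to 0.21 for Cox8c, -0.33 to 2.12 for Ndufa11, -0.45 to 1.62 for Ndufs3, -0.385 to 1.145 for Ndufs8, -0.24 to 0.69 for Ndufv2, -0.40 to 1.25 for Sdhc, -0.235 to 0.855 for Uqcrc1, -0.13 to 1.06 for Uqcrc2 and -0.05 to 1.17 for Uqcrfs1.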

Other observations

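Of the 38 members with several probe sets, 11 had 1 probe set whose difference had the opposite sign to that of the brightest. Of these 11 probe sets, 8 were above the highest nonspecific probe set on no array and 2 on some arrays, so that their sign carries little information, and 1, of Ndufs5-ps, was above it on all 4. That one had 7.41 and 8.04 in BC alone and 8.32 and 7.42 for the control. The 135 probe sets of the 79 genes had a higher mean in BC alone in 118 cases. The widest ranges were those of Uqcrq, Uqcr10 and Ndufa11, each through a dim probe set. The brightest Ndufa11 probe set had 9.41 and 9.53 in BC alone and 9.80 and 7.35 for the control, a difference of 0.895, and a second one with a mean of 4.31 had 4.13 and 3.95 against 4.15 and 5.02, a difference of -0.545. Of the 4 Uqcrq probe sets, the one used differed by 1.39, and the others, with means of 3.435 to 4.91, differed by -0.07 to 0.23. For Uqcr10 the probe set used differed by 1.29, one with a mean of 7.655 by 0.56 and one with a mean of 4.69 by -0.155.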
